A study of Mus musculus with 12 samples.

Results

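The BBSome is a coat-like protein complex that carries membrane proteins into and out of the primary cilium, the antenna-like organelle through which many cells receive Hedgehog and other signals. Inpp5e is an enzyme of the ciliary membrane that removes the 5-phosphate from phosphoinositides, and so sets the lipid composition by which the cilium is told apart from the plasma membrane. Mutations in the human genes of the complex and its assembly chaperonins cause Bardet-Biedl syndrome, and mutations in human INPP5E cause Joubert syndrome. Cleavage-stage mouse embryos carry no primary cilia, which are first seen after implantation, so these transcripts are described here in a stage before the organelle is built. The 10 genes were Inpp5e, the genes of 7 proteins of the complex (Bbs1, Bbs2, Bbs4, Bbs5, Bbs7, Bbs9 and Ttc8, also called Bbs8), and Bbs10 and Bbs12, which encode chaperonin-like proteins needed to assemble it. They were taken by gene symbol, as 10 of 18163 named genes and 16 of 44937 probe sets on the array, and the probe set with the highest mean log2(intensity + 16) over the 12 arrays stood for its gene. Inpp5e was chosen by its fold change and adjusted p in the Oct4-MO comparison, so its values in that comparison are given as a description with no test.

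Translation of Oct4 (Pou5f1), a transcription factor of pluripotent cells, or of Ccna2, the gene of cyclin A2, was blocked in fertilized mouse eggs by a morpholino oligonucleotide (MO), an antisense oligonucleotide that binds the transcript and hinders the ribosome without cutting it. The 4 groups had 3 arrays each: Oct4-MO (0.6 mM per the labels, against the translational start site), the uninjected embryos of the Oct4-MO experiment, Ccna2-MO (0.6 mM per the labels, against the 5′UTR or the translational start site), and the uninjected embryos of the Ccna2-MO experiment. All embryos came from superovulated wild-type F1 (C57BL6xDBA/2) females aged 3 to 5 weeks that had been mated with wild-type males, and were recovered at the 2-pronuclei stage 17 h after hCG. Embryos for the arrays were collected 43 h after hCG, at the 2-cell stage. Each array held RNA of a pool of 20 embryos, and the amount from 10 of them went through 2 rounds of amplification. Injected embryos and their uninjected controls came from the same pool of embryos of 3 to 6 females and were cultured in parallel. The controls received no injection, so within either comparison injection as such and loss of the target protein cannot be told apart. The study treats its Ccna2-MO arrays as the control for microinjection and for oligonucleotide in the cytoplasm. Here the difference between the knockdowns sets the Oct4-MO change against the Ccna2-MO change. A MO leaves its target mRNA in place, so the target's own array value is no check of the knockdown. In pools of whole embryos, fewer cells of a type and less RNA per cell cannot be told apart either. The study counts each pair of pools as an experiment of its own, and p-values measure the spread between these pools.

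The arrays were alike in overall signal, with a median intensity of 22.7 to 25.5 per array and 39.3 to 42.7% of probe sets under an intensity of 16. Transcripts that define oocytes and early embryos were bright, with summed intensities over 12 such genes of 14370 to 16030 in Oct4-MO, 15090 to 15520 in its uninjected controls, 16340 to 19180 in Ccna2-MO and 16970 to 18040 in its controls. Markers of cumulus and granulosa cells were dim in every group: the sum over 10 measured genes was 137 to 198 in Oct4-MO, 127 to 147 in its controls, 143 to 261 in Ccna2-MO and 131 to 219 in its controls. For 5 measured markers of multiciliated cells the sum was 489.5 to 585 in Oct4-MO, 307 to 518 in its controls, 395 to 549.6 in Ccna2-MO and 309.8 to 489 in its controls, so that the groups overlapped. Of these 5 genes 3 were below 0 in Oct4-MO by log2 fold change and 2 in Ccna2-MO. The median log2 fold changes of this list were -0.09 in Oct4-MO and 0.01 in Ccna2-MO. In these lists 1 gene passed the test in a knockdown, the oocyte factor Zar1, which rose in Ccna2-MO (log2 fold change 2.19, limma adjusted p = 0.0328). Over all probe sets 0.748% passed in Ccna2-MO and 0.0734% in Oct4-MO.

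Inpp5e and Bbs2 were the members in which every injected array lay below every uninjected array, and this held in both experiments. In Oct4-MO, where Inpp5e was chosen for its lower level, Bbs2 was the 1 gene of the other 9 separated downward, against 8.4% of all probe sets. In Ccna2-MO 2 of the 10 genes were, against 8.27% of all probe sets. Bbs9 was separated upward in Ccna2-MO and no member was in Oct4-MO, against 8.64% and 8.24% of all probe sets. By mean signal 7 members were among the brighter probe sets of the array, and Bbs7, Bbs10 and Bbs12 were among the dimmer ones, with 7, 8 and 7 of 12 arrays under an intensity of 16.

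**Figure D1:**
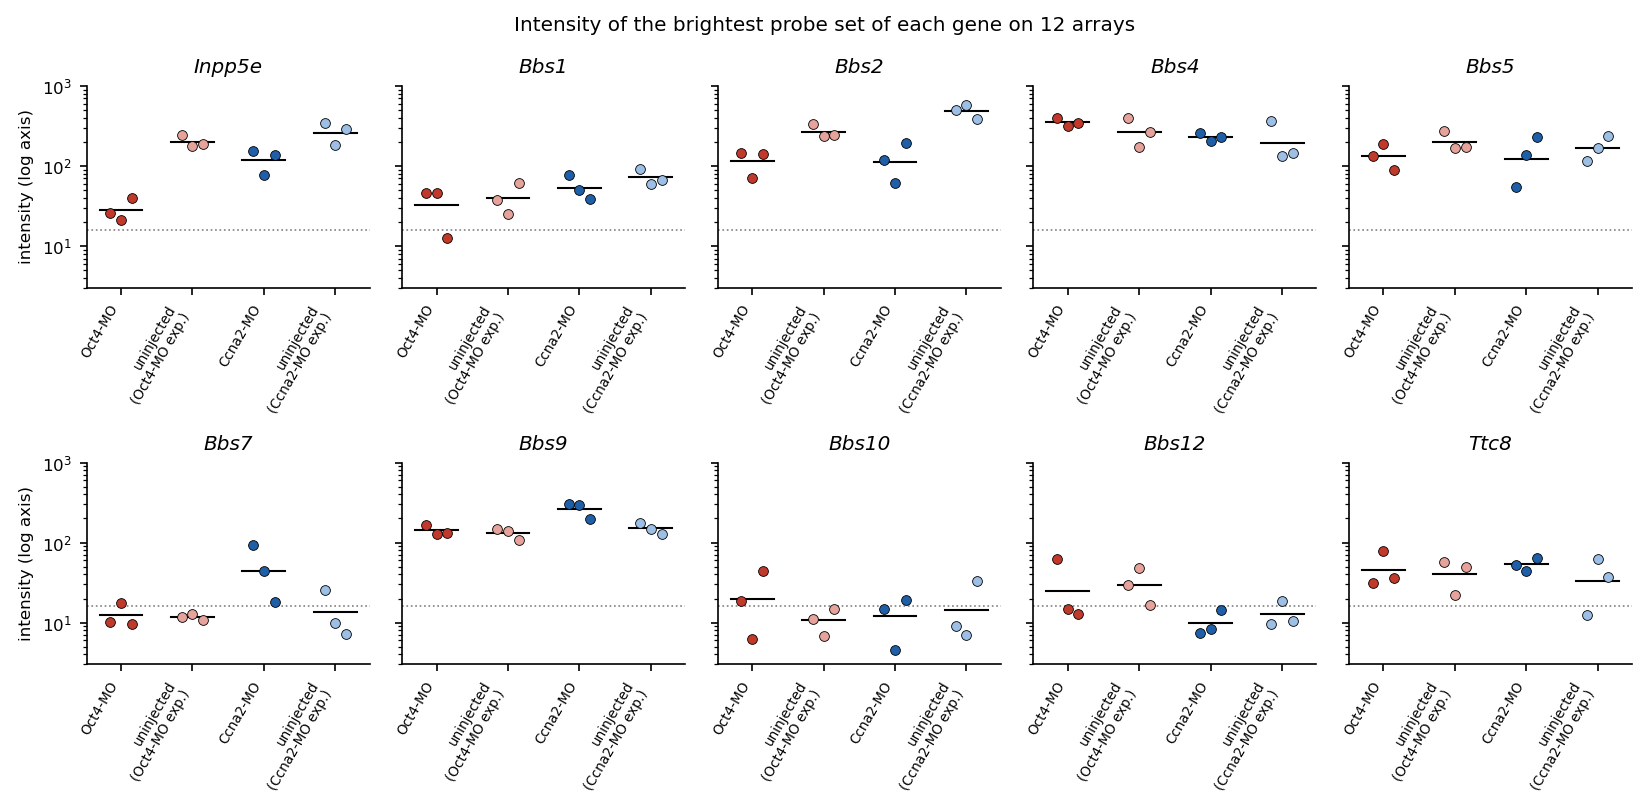
Intensity (log axis) of the brightest probe set of each of the 10 genes on the 12 arrays, with injected pools left of their uninjected controls. Points are single arrays, the horizontal bar is the group mean taken on the log2(intensity + 16) scale, and the dotted line marks an intensity of 16. Inpp5e and Bbs2 have all injected points below all uninjected points in both experiments, while Bbs7, Bbs10 and Bbs12 lie near or below the dotted line on most arrays.

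Inpp5e, the 5-phosphatase, had intensities of 25.8, 21.3 and 39.99 in Oct4-MO pools 1 to 3, against 241, 177 and 187 in the uninjected pools of the same numbers. The groups did not overlap, and the brightest Oct4-MO pool was far below the dimmest control. Group means were 29.0 ± 9.76 in Oct4-MO and 201.9 ± 34.6 in controls (SD, n = 3 each). The log2 fold change was -2.28 (SE 0.33), a level 4.87-fold lower. The pair differences were -2.62, -2.37 and -1.86 on the log2 scale.

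In the Ccna2-MO experiment, which was not used to choose Inpp5e, its intensities were 155, 76.4 and 139 in the injected pools, against 343, 181 and 290.5 in their controls. Every injected pool was below every control, and the pair differences were close to each other at -1.07, -1.09 and -0.98. Means were 123 ± 41.6 in Ccna2-MO and 272 ± 82.6 in controls (SD, n = 3 each). The log2 fold change was -1.05 (SE 0.33, 95% interval -1.76 to -0.34). That change did not pass the test over all probe sets (limma, adjusted p = 0.163). The order of groups by mean level was uninjected of the Ccna2-MO experiment, uninjected of the Oct4-MO experiment, Ccna2-MO and Oct4-MO, and of these neighbours the 2 uninjected groups overlapped and the others did not. The change in Oct4-MO minus that in Ccna2-MO was -1.24 (SE 0.46), which is given without a test because it contains the arrays that chose the gene.

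The second Inpp5e probe set did not follow the first. Its intensities were 55.2, 137 and 132 in Oct4-MO, against 49.5, 83.7 and 60.1 in controls, which overlapped, with a log2 fold change of 0.57 (SE 0.60) in the opposite direction. In the Ccna2-MO experiment it read 73.8, 68.4 and 73.5 in injected pools, against 451, 69.0 and 46.4 in controls, where a single control pool stood far above all others. Its log2 fold change there was -0.62 (SE 0.60, limma adjusted p = 0.703). Over the 12 arrays the log2 values of both probe sets had a Pearson r of 0.0417. When a gene was represented by the mean of its probe sets, the Inpp5e log2 fold change was -0.86 in Oct4-MO and -0.84 in Ccna2-MO (adjusted p = 0.296). The lower level of Inpp5e in Oct4-MO therefore rests on 1 of its 2 probe sets, and which part of the transcript each one reads was not examined.

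**Figure D2:**
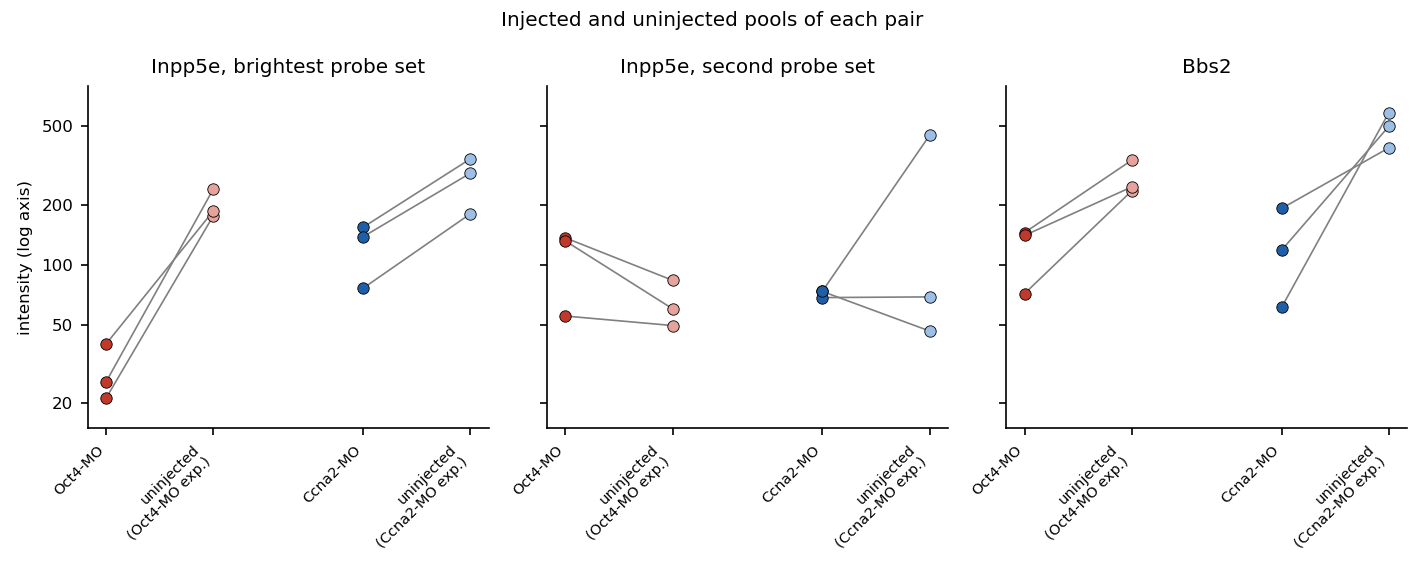
Intensity (log axis) of the brightest Inpp5e probe set, the second Inpp5e probe set and Bbs2, with a line joining the injected and the uninjected pool of each pair, injected pools on the left. All 6 lines run upward to the controls for the brightest Inpp5e probe set and for Bbs2, while for the second Inpp5e probe set the 3 lines of the Oct4-MO experiment run downward.

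Bbs2, a subunit of the core of the complex and represented by a single probe set, had the strongest change in Ccna2-MO among the members. Its intensities were 119, 61.2 and 193 in Ccna2-MO pools, against 500.4, 586 and 389.9 in their controls. The highest injected pool lay below the lowest control by a wide margin. Means were 124 ± 66.0 in Ccna2-MO and 492 ± 98.5 in controls (SD, n = 3 each), so that Bbs2 fell by 1.95 on the log2 scale (SE 0.37, 3.87-fold lower, limma adjusted p = 0.0373). It was the 1 member of 10 that passed in this comparison, in which 0.748% of all probe sets passed. With the replicate pair as a block the adjusted p was 0.0721. The call was also lost when any 1 of 9 arrays was left out, with adjusted p between 0.0535 and 0.131. These were Ccna2-MO pools 1 and 2, all 6 uninjected pools and Oct4-MO pool 3, and the fold change itself stayed between -2.30 and -1.58.

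In Oct4-MO pools Bbs2 had intensities of 146, 71.7 and 141, against 338, 236 and 248 in controls, again without overlap. Means were 119.5 ± 41.4 in Oct4-MO and 274 ± 55.6 in controls (SD, n = 3 each), with a log2 fold change of -1.13 (SE 0.37, 95% interval -1.94 to -0.33) that did not pass (limma adjusted p = 0.327). Over all probe sets of this comparison 0.0734% passed. Among the other members no gene passed in Oct4-MO (limma, adjusted over all probe sets), and Bbs2 was the 1 gene of them under 0.05 before adjustment, against 9.26% of all probe sets. The change in Oct4-MO minus that in Ccna2-MO was 0.82 (95% interval -0.32 to 1.96, adjusted p = 0.809), so a larger change in either knockdown was not shown.

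The uninjected groups also had different mean levels of Bbs2, a difference that did not pass the test. The 3 uninjected pools of the Oct4-MO experiment lay below the 3 of the Ccna2-MO experiment without overlap, with a difference of -0.81 (SE 0.37, unadjusted p = 0.0495, limma adjusted p = 0.433). With all 6 uninjected arrays as controls, the log2 fold changes were -1.54 in Oct4-MO (limma adjusted p = 0.034) and -1.55 in Ccna2-MO (limma adjusted p = 0.0401). Both contrasts take in controls of the other experiment, so the difference between the uninjected groups enters them. Over all probe sets they called 857 in Oct4-MO and 583 in Ccna2-MO, against 33 and 336 with each experiment's own controls. In order of mean level, uninjected pools of the Ccna2-MO experiment came first and those of the Oct4-MO experiment next, each clear of its neighbour, and the 2 injected groups overlapped. Inpp5e and Bbs2 had a Pearson r of 0.764 over the 12 arrays, which share the same group structure.

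Bbs9 and Bbs7, subunits that contact each other and Bbs2 within the complex, ran the other way in Ccna2-MO. Bbs9 had intensities of 302, 298 and 196 in Ccna2-MO, against 178, 148 and 129 in controls, with no overlap. Its means were 265 ± 60.4 in Ccna2-MO and 152 ± 24.6 in controls (SD, n = 3 each). The change was 0.73 on the log2 scale (SE 0.26) and did not pass (limma adjusted p = 0.223). In the Oct4-MO experiment Bbs9 was nearly level, at 168, 129 and 132 in injected pools and 146, 139 and 107 in controls (log2 fold change 0.12, adjusted p = 0.954).

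Bbs7 had intensities of 93.5, 43.9 and 18.2 in Ccna2-MO, against 25.7, 10.0 and 7.31 in controls. Each injected pool was above its own control, yet the lowest injected pool was below the highest control. The log2 fold change was 1.05 (SE 0.36, limma adjusted p = 0.204), and it passed only without Ccna2-MO pool 3 among the 12 arrays left out in turn (1.46, adjusted p = 0.0496). In Oct4-MO pools it read 10.3, 17.7 and 9.74, against 11.7, 12.8 and 10.7 in controls, all near the low end of the array. The second Bbs7 probe set was under an intensity of 16 on all 12 arrays.

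Bbs4, a subunit that also binds pericentriolar material, was bright in all groups, with intensities from 134 to 403 over the 12 arrays. It read 399.9, 318 and 342 in Oct4-MO, against 403, 175 and 266 in controls (log2 fold change 0.38, adjusted p = 0.845). Of its 3 other probe sets, 1 tracked the brightest (Pearson r = 0.879 over 12 arrays) and was higher without overlap in Oct4-MO at 414, 363 and 329.95, against 256, 225 and 229 in controls (log2 fold change 0.60, limma adjusted p = 0.634). The other two had r of -0.142 and 0.359 with it. In Ccna2-MO the brightest probe set overlapped its controls (log2 fold change 0.22, adjusted p = 0.850), and the mean of all 4 probe sets was -0.10.

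Bbs5, a subunit with domains that bind phosphoinositides, gave intensities of 55.4 to 271 over the 12 arrays with overlapping groups in both experiments. Its log2 fold changes were -0.52 in Oct4-MO (SE 0.44, adjusted p = 0.813) and -0.40 in Ccna2-MO (SE 0.44, adjusted p = 0.747). Bbs1, the subunit through which the complex is recruited by the small GTPase Arl6, had log2 fold changes of -0.21 (SE 0.37, adjusted p = 0.936) and -0.34 (SE 0.37, adjusted p = 0.751) in Oct4-MO and Ccna2-MO. Intensities of Bbs1 were 12.7 to 91.2, and each Ccna2-MO pool was below its own control although the groups overlapped. Ttc8, a subunit built of tetratricopeptide repeats, had intensities of 12.5 to 77.7 and log2 fold changes of 0.12 (SE 0.41, adjusted p = 0.974) in Oct4-MO and 0.49 (SE 0.41, adjusted p = 0.646) in Ccna2-MO.

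The chaperonin-like Bbs10 and Bbs12 were dim. Bbs10 ranged from 4.49 to 44.1 over the 12 arrays, with log2 fold changes of 0.43 in Oct4-MO (adjusted p = 0.819) and -0.12 in Ccna2-MO (adjusted p = 0.931). Bbs12 ranged from 7.44 to 62.6, with -0.16 in Oct4-MO (adjusted p = 0.957) and -0.14 in Ccna2-MO (adjusted p = 0.913). The 95% intervals of the Ccna2-MO changes ran from -0.92 to 0.69 for Bbs10 and from -0.94 to 0.65 for Bbs12.

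**Figure D3:**
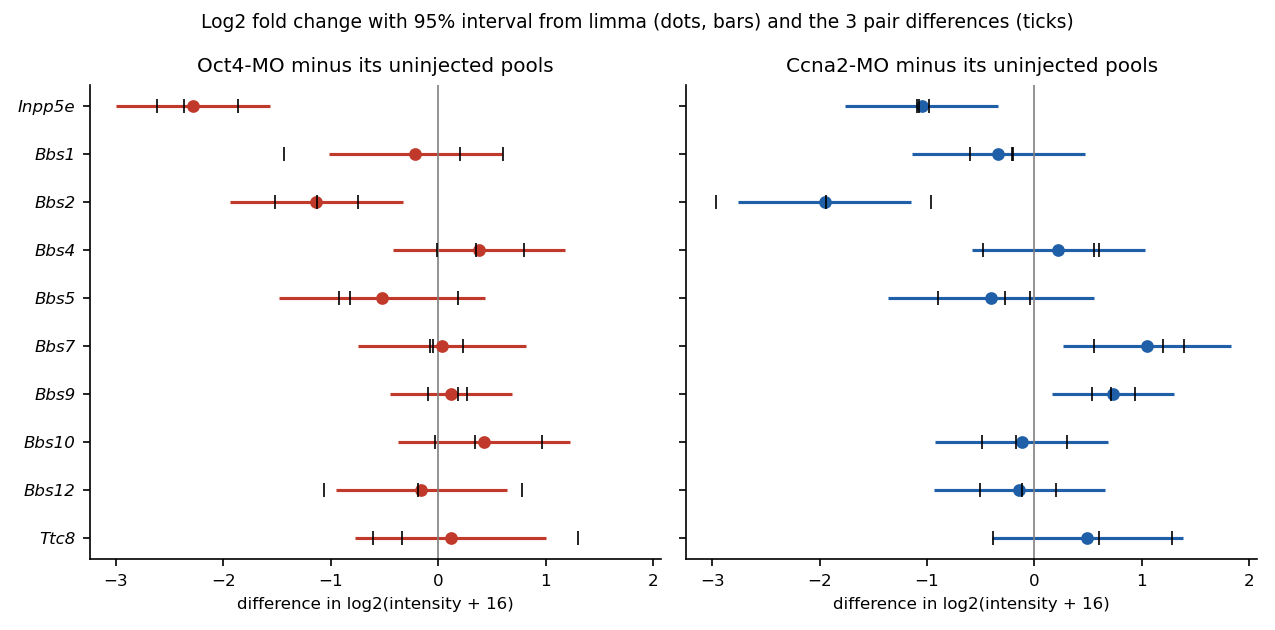
Difference in log2(intensity + 16) between injected and uninjected pools for the 10 genes, Oct4-MO on the left and Ccna2-MO on the right. Dots are the limma estimates, bars their 95% intervals and ticks the 3 pair differences. Inpp5e reaches -2.28 in Oct4-MO, where it was chosen by that value and its interval is no test, and Bbs2 reaches -1.95 in Ccna2-MO. The other intervals include 0 except those of Bbs2 in Oct4-MO and of Inpp5e, Bbs7 and Bbs9 in Ccna2-MO. Intervals are not adjusted for the number of probe sets, and none of these other changes passed the adjusted test.

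Taken as a group, the 10 genes did not move one way. The median log2 fold change of the 10 genes was -0.06 in Oct4-MO, where 5 were below 0, and -0.13 in Ccna2-MO, where 6 were below 0. Over all 18163 genes the medians were 0.01 and 0.03, with 48.5% and 46.8% of genes below 0. In Ccna2-MO 4 of the 10 genes had an unadjusted limma p under 0.05, 2 of them lower, against 14.1% of all probe sets in either direction. Only Bbs2 of these passed after adjustment. Without Inpp5e, the remaining 9 had medians of 0.03 in Oct4-MO and -0.12 in Ccna2-MO. Between the knockdowns none of these 9 passed the test of the difference (0.00223% of all probe sets did), and none had an unadjusted p under 0.05, against 6.65% of all probe sets. Between the uninjected groups no member passed either (0.0912% of all probe sets did), and 1 of 10, Bbs2, had an unadjusted p under 0.05, against 11.5% of all probe sets.

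The partners of the complex were measured alongside. Of all probe sets 0.0734% passed in Oct4-MO and 0.748% in Ccna2-MO, so 0 calls in a short list do not show that it was unchanged. Of 14 listed partners, which include the recruiting and assembly factors, 12 were measured and none passed in either knockdown, with medians of 0.07 in Oct4-MO and 0.18 in Ccna2-MO. By smallest p these were Sdccag8, a centrosomal protein (-0.57, adjusted p = 0.522), and Ccdc28b, a modifier of Bardet-Biedl syndrome in humans (0.98, adjusted p = 0.586), in Oct4-MO. In Ccna2-MO they were Pcm1, the scaffold of centriolar satellites (0.63, adjusted p = 0.105), and Rab3ip, the exchange factor that activates Rab8 (-0.60, adjusted p = 0.19). For the difference between the knockdowns they were Rab8a, a GTPase of ciliary membrane delivery (-1.35, adjusted p = 0.666), and Rab3ip (0.60, adjusted p = 0.753). Between the uninjected groups they were Ift27 (0.59, adjusted p = 0.407) and Pcm1 (0.25, adjusted p = 0.602).

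The CCT chaperonin, a ring that folds actin and tubulin and works with Bbs10 and Bbs12 in assembling the BBSome, had all 9 listed subunits measured and none called. Its median was -0.42 in Oct4-MO, with 8 of 9 subunits below 0 and 3 lower at an unadjusted p under 0.05, against 9.26% of all probe sets under that p in either direction. In Ccna2-MO the median was -0.32, with 7 of 9 below 0. There 4 subunits were lower at an unadjusted p under 0.05, against 14.1% of all probe sets. Of the 9 subunits 8 were in the brighter part of the array. Within that part 3048 of 22468 probe sets had an unadjusted p under 0.05 in Oct4-MO, and 4764 of 22468 in Ccna2-MO. These shares are larger than those over all probe sets, which are therefore a low baseline for the CCT counts. Of all genes 48.5% and 46.8% were below 0 in these comparisons, and subunits of a single complex are not independent of each other.

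Inpp5e reaches the cilium through a carrier, Pde6d, that binds its lipid tail and is unloaded by Arl3. Of 13 listed genes of this route and of related ciliary targeting, 11 were measured and none was called. Of all probe sets 0.0734% were called in Oct4-MO and 0.748% in Ccna2-MO. The medians of the list were 0.00 in Oct4-MO and 0.30 in Ccna2-MO. Pde6d itself had intensities of 177, 198 and 128 in Oct4-MO, against 60.5, 73.1 and 26.8 in controls, without overlap and opposite in direction to Inpp5e (log2 fold change 1.45, SE 0.42, limma adjusted p = 0.26). Its uninjected pools of the Oct4-MO experiment were also below those of the Ccna2-MO experiment, by 1.33 (SE 0.42, adjusted p = 0.249). Unc119, a carrier of myristoylated cargo, was likewise higher without overlap in Oct4-MO (1.22, adjusted p = 0.381). Hdac6 (-0.67, adjusted p = 0.577) and Aurka (-0.29, adjusted p = 0.641) of the same list were lower without overlap there, so the list did not move one way. Of all probe sets 8.24% were separated upward and 8.4% downward in Oct4-MO. In Ccna2-MO the smallest p belonged to Aurka, a mitotic kinase that also acts in cilium disassembly (-0.53, adjusted p = 0.153), and Ttbk2, a kinase that starts cilium assembly (1.07, adjusted p = 0.482). Unc119 (1.44, adjusted p = 0.733) and Hdac6, a tubulin deacetylase (-0.96, adjusted p = 0.757), led the difference between the knockdowns, and Tulp3, an adaptor of receptor entry into cilia (-0.52, adjusted p = 0.21), and Arl2 (0.86, adjusted p = 0.231) led between the uninjected groups.

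No gene passed in either knockdown among other inositol polyphosphate phosphatases (15 of 16 measured, medians -0.06 in Oct4-MO and 0.11 in Ccna2-MO), phosphoinositide kinases (20 of 21, -0.09 and -0.19), intraflagellar transport proteins (28 of 28, 0.18 and 0.07), transition zone proteins (17 of 18, -0.04 and 0.04), or ciliary receptors and Hedgehog genes (18 of 19, 0.03 and 0.07).

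**Figure D4:**
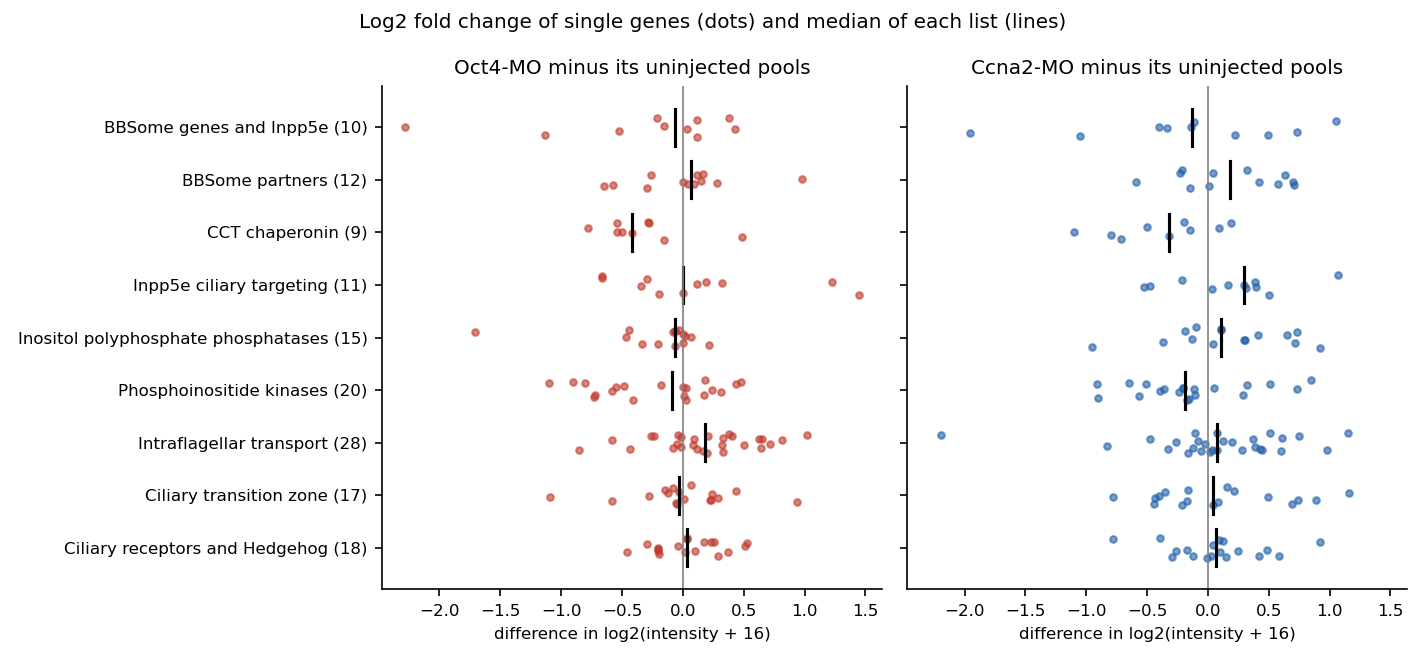
Difference in log2(intensity + 16) between injected and uninjected pools for single genes (dots) of the 10 members and of 8 related lists, with the number measured in brackets and the median as a line, Oct4-MO on the left and Ccna2-MO on the right. The median of the CCT chaperonin is the lowest of the lists in both panels, at -0.42 and -0.32.

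The genes whose pattern over the 12 arrays was most like that of Inpp5e, among 11416 genes in the brighter part of the array, were Eif3e, a subunit of translation initiation factor 3 (Pearson r = 0.982), Ecsit, an assembly factor of mitochondrial complex I (0.958), Ube2h, a ubiquitin-conjugating enzyme (0.954), Sirt1, a protein deacetylase (0.945), and Jmy, a cofactor of p53 that also nucleates actin (0.943). None of these is a ciliary gene of the lists above. For Bbs2 they were Rars, the arginyl-tRNA synthetase (0.962), Exoc3l2 (0.961), Kti12 (0.96), Srsf1, a splicing factor (0.949), and Esf1 (0.946). These are correlations across 12 arrays that share group and pool, and each r carries the differences between groups.

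Promoter windows of the members (GRCm38.p6) spanned the 250 bases before to 50 after an annotated start. That start was not always the outer end of the RefSeq gene, as for Bbs2 and Bbs5, and other starts of a gene were not scanned. All 10 genes matched, with 11 promoters, and none held the octamer ATGCAAAT, the motif bound by Oct4 and other POU factors, on either strand. Over 32851 promoters of the same length 570 held it (1.74%), so this says only that these letters are not in these windows. The member promoters were 50.3 to 69.7% G and C (median 62, against 52.7 over all promoters), and their ratio of observed to expected CpG was 0.556 to 0.903, against a median of 0.384 over all promoters.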

How the data were processed

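Labelled cDNA of 12 pools of embryos was hybridised to 1-colour Affymetrix arrays. The deposited values are intensity on a linear scale, which the authors normalized with dChip, with version and options not given in the sources used here. In the study's methods the dose was 0.75 mM for Ccna2-MO, and in the labels 0.6 mM. Depth does not apply to arrays, and their number limits the precision. Of the deposited probe sets, 64 controls were left out and 44937 kept, of which 34849 had 1 gene symbol in the platform annotation, 928 several and 9160 none. No symbol needed an update through its gene identifier. log2(intensity + 16) was fitted for the 4 groups in 1 model over all 12 arrays (limma 3.58.1, R 4.3.3, eBayes with trend), with Benjamini-Hochberg adjustment over all probe sets and a call at an adjusted p under 0.05. The added 16 makes the changes of dim genes look smaller. The fit was tested on 44937 simulated probe sets with independent normal noise. In the Oct4-MO comparison 200 of them, all from the brighter part, were changed by 2 on the log2 scale. Of these 132 were called, with 10 false calls. No dim probe set was changed and no effect of pool or experiment was added. The result therefore does not speak for Bbs7, Bbs10 and Bbs12 or for such effects. The label pairs each injected pool with the uninjected pool of its number, drawn from the same embryos, so the pair was used as a block in an alternative. After removing group means, paired arrays correlated at 0.083, 0.0308 and 0.00911 (Oct4-MO) and -0.0128, 0.0841 and 0.114 (Ccna2-MO). Members and gene lists were chosen with earlier results of these data known. Named were all 10 members, genes of a list that were called, the 2 smallest p per comparison in the partner and Inpp5e targeting lists, and the 5 genes most correlated with Inpp5e and Bbs2. Pde6d is given by array because it came up under that rule, and CCT counts were described after their values were seen. Alternatives were other pseudocounts, normalizations, filters, sample sets, weights, probe set summaries and tests, and leaving out each array.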

Additional observations from a re-analysis of the deposited data

How the results depend on the processing

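The number of members with an adjusted p under 0.05 in Oct4-MO was 1, namely Inpp5e, which was chosen by that value and so adds no evidence. It was 0 with the replicate block, a pseudocount of 64 or only the 6 arrays of the comparison. The same held with the mean of all probe sets or a plain unpaired t-test. With all 6 uninjected arrays as controls the number was 2, when Bbs2 passed too. With 1 array left out it was 0 to 1, and over all 24 alternatives it was 0 in 13. In Ccna2-MO it was 1, and was 0 with the replicate block, only 6 arrays, array weights or the plain t-test. With 1 array left out it was 0 to 2 there. The cause was not tested. The plain t-test called 0 of all probe sets after Benjamini-Hochberg adjustment in Oct4-MO and in Ccna2-MO (4292 and 4242 at an unadjusted p under 0.05). It is not the study's method, which ranked genes by an unpaired t-statistic together with fold change and its log. The study estimated its false discovery rate from permutations, and that method was not run here. Counts over all probe sets were 33 in Oct4-MO and 336 in Ccna2-MO, against 4 and 124 with the replicate block, 18 and 323 with a pseudocount of 64, 92 and 711 in the brighter part of the array, 0 and 3 with only 6 arrays, 16 and 255 with no intensity trend, 857 and 583 with all 6 controls, and 257 and 87 with array weights. With 1 array left out they were 0 (without uninjected pool 1 or 3 of the Oct4-MO experiment) to 87 (without Ccna2-MO pool 2) in Oct4-MO, and 17 (without uninjected pool 1 of the Ccna2-MO experiment) to 652 (without Ccna2-MO pool 3) in Ccna2-MO, so the shares of all probe sets called vary as widely. No member was called in the difference between the knockdowns or between the uninjected groups under any alternative run. The Inpp5e value in Oct4-MO was -2.79 with a pseudocount of 1, -1.51 with 64 and -0.86 with the mean of its probe sets. Its difference between the knockdowns was -1.24, and -0.02 with that mean.

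Among changes that did not pass, signs turned for Bbs7 (-0.00857) and Bbs12 (0.18) in Oct4-MO with all 6 controls, Bbs4 in Ccna2-MO with the mean of probe sets (-0.10), and the Bbs12 difference between the knockdowns with a pseudocount of 64 (0.00183), quantile normalization (0.0132) and median centring (0.038). With 1 array left out, values that crossed 0 in Oct4-MO ran from -0.43 to 0.16 (Bbs1), -0.0917 to 0.10 (Bbs7), -0.00586 to 0.19 (Bbs9), -0.62 to 0.10 (Bbs12) and -0.19 to 0.30 (Ttc8). In Ccna2-MO they ran from -0.0238 to 0.66 (Bbs4), -0.82 to 0.0765 (Bbs5) and -0.32 to 0.23 (Bbs10). For the difference between the knockdowns they ran from -0.10 to 0.50 (Bbs1), -0.28 to 0.44 (Bbs4), -0.60 to 0.30 (Bbs5), -0.48 to 0.24 (Bbs12) and -0.71 to 0.0172 (Ttc8). Between the uninjected groups they ran from -0.0205 to 0.45 (Bbs5), -0.25 to 0.17 (Bbs7), -0.40 to 0.15 (Bbs10) and -0.19 to 0.54 (Ttc8). The 3 pools a group limit the precision of all members, and no detection calls were used.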
